A study of Homo sapiens with 12 samples.

Results

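A set of 6 genes marked which arm of the experiment a DU145 library came from: SFTPB, EDN2 and MAP2K6 were high in the libraries of the compound arm, and OLAH, ATP6V0D2 and SPINK1 in those of the siRNA arm. They are rows of a deposited table of 21439 genes, and all 6 were among the 17823 genes that passed the filter on low counts. They were selected on the measured difference between the DMSO and the control siRNA libraries, as the largest in either direction. That difference is therefore given as a description, and the question put to the data is whether it is also seen in the libraries that the choice did not use, and whether ATF6 siRNA or Ceapin-A7 changed these genes within an arm.

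DU145 is a line of human prostate cancer cells that grow without androgen, and 12 libraries of it formed 4 groups of 3. In the siRNA arm, cells were transfected with an Allstar control siRNA (siCtrl) or an siRNA specific for ATF6 (siATF6) and kept for 24 h. The compound arm was given DMSO or 10 µM Ceapin-A7 (Ceapin), which blocks activation of the stress sensor ATF6, for 12 h. All 4 groups, controls included, were also given 30 nM Tg for the last 3 h, so there was no group without it. Tg is read here as thapsigargin, a blocker of the calcium pump of the endoplasmic reticulum. The labels do not say whether replicates were separate cultures, and p-values then measure only the spread between these libraries. Transfection, culture time, compound or solvent, and whatever else differed between the arms cannot be told apart in any comparison of the arms.

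The 6 genes come from unrelated systems. SFTPB encodes surfactant protein B, which type II cells of the lung alveolus secrete to spread phospholipid at the air surface. EDN2 encodes endothelin-2, a short peptide that contracts vessels through the endothelin receptors, and MAP2K6 encodes MKK6, a kinase that phosphorylates and activates p38 MAP kinases. OLAH encodes a thioesterase that frees medium-chain fatty acids from fatty acid synthase and is best known from milk fat in the rat. ATP6V0D2 encodes the d2 subunit of the membrane sector of the V-ATPase proton pump, abundant in osteoclasts and kidney. SPINK1 encodes a small Kazal-type inhibitor of trypsin made by the pancreas, which also marks a subset of prostate cancers.

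Library totals ran from 17760878 to 19202632 counts. ATF6 mRNA stood at 124.6 ± 1.08 CPM (counts relative to the scaled library total; mean ± SD, n = 3) in siCtrl, 25.8 ± 0.810 in siATF6, 71.4 ± 1.99 in DMSO and 72.9 ± 1.91 in Ceapin. It fell after the siRNA (log2 fold change −2.27, edgeR adjusted p = 9.37e-30) and was not called after Ceapin-A7 (0.03, adjusted p = 0.748). A label field names an siRNA for the 6 libraries of the compound arm as well, and whether those cells were transfected was not tested. The share of counts from the mitochondrial genome moved with the arm, from 6.65% to 7.49% in the siRNA arm and from 9.71% to 10.5% in the compound arm. Of 15 prostate epithelial markers 12 were in the table, and their summed level moved with the arm too, from 953.1 to 1118 CPM in the siRNA arm and from 2094 to 2191 CPM in the compound arm. KLK3, KLK2 and FOLH1, which mark androgen-responsive prostate cells, were the 3 listed markers without values. CDH1, which encodes E-cadherin, stood at 14.6 ± 0.893 CPM in siATF6 and 138 ± 2.66 CPM in Ceapin. Of 7 neuroendocrine markers 3 had values, summing to 74.7 to 101.4 CPM in the siRNA arm and 41.8 to 48.9 CPM in the compound arm, most of it ENO2. Markers of leukocytes (3 of 7 with values) summed to at most 2.14 CPM and those of fibroblasts and endothelium (8 of 10) to at most 10.9 CPM. The part of these shifts in the results on the 6 genes was not tested.

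**Figure D1:**
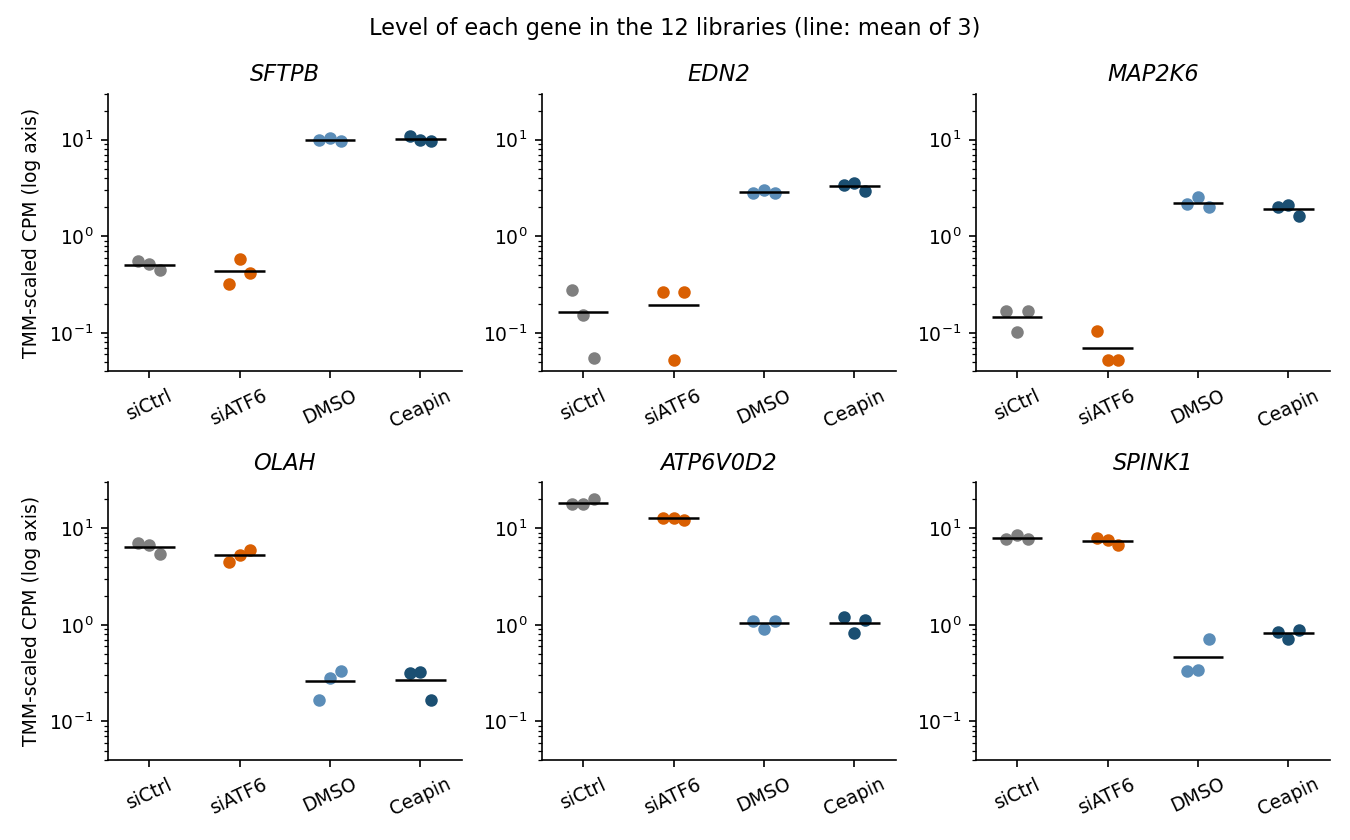
Level of each of the 6 genes in every library, as scaled CPM on a log axis (points, 3 libraries a group; lines, group means). SFTPB, EDN2 and MAP2K6 lie above 1.5 CPM in DMSO and Ceapin and below 0.6 CPM in siCtrl and siATF6, and the other 3 genes show the opposite order.

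SFTPB (ENSG00000168878; GRCh38 chromosome 2, 85657314 to 85668741, minus strand, protein-coding) was detected at 0.557, 0.516 and 0.446 CPM in siCtrl replicates 1 to 3 and at 0.317, 0.580 and 0.420 CPM in siATF6, from 6 to 11 reads a library. In DMSO it was at 9.95, 10.3 and 9.69 CPM and in Ceapin at 10.8, 9.99 and 9.76 CPM, from 175 to 206 reads. Every library of the compound arm lay above every library of the siRNA arm, and within each arm the groups overlapped. In Ceapin against siATF6, the libraries that the choice did not use, SFTPB was 22.9-fold higher (log2 fold change 4.51, SE 0.169, edgeR adjusted p = 3.34e-21). That p rests on a spread fitted over all 12 libraries, those of the choice included. Neither treatment gave a call: siATF6 differed from siCtrl by −0.20 (95% interval −0.87 to 0.46, adjusted p = 0.753) and Ceapin from DMSO by 0.03 (−0.16 to 0.22, adjusted p = 0.936). The interval is narrow in the compound arm, where SFTPB has reads to count, and wide in the siRNA arm.

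RefSeq lists a pair of starts for SFTPB. Each window below runs from 250 bases before a start to 50 after it (GRCh38.p14, minus strand, 5′ to 3′), and the windows are shown because SFTPB is the gene whose difference between the arms rests on the most reads in the high group among the 3 genes high with the compound. Capitals mark motifs found on either strand in a search for TATAA (the TATA box), CCAAT (bound by NF-Y), TGANTCA (AP-1), TGACGT (the CRE core), CTCAAG (the NKX2-1 core), TTCNNNGAA (STAT) and the ER stress element, whose longer sequence contains CCAAT.
SFTPB window at chr2:85668692-85668991: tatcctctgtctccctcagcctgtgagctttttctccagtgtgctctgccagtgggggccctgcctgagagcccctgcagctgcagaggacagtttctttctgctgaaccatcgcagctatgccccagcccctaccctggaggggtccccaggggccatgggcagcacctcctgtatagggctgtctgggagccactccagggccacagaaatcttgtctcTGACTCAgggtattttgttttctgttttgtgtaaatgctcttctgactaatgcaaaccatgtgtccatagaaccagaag
SFTPB window at chr2:85668150-85668449: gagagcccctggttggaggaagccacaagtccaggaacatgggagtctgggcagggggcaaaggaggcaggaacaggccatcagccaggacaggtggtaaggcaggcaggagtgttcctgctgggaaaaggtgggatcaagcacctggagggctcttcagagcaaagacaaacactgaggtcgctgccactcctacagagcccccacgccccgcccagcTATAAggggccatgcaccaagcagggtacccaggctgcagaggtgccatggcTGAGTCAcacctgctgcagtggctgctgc
The first window holds the AP-1 sequence TGANTCA, whose first base lies 29 bases before the start. The second holds TATAA, which begins 31 bases before its start, and TGANTCA, which begins at base 22 after it. Of 35116 RefSeq windows of this length, 20.4% hold TATAA and 7.71% hold TGANTCA. These are matches of letters, not shown to be sites in use.

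Of 15 genes listed for surfactant and alveolar type II cells, 11 were in the table and 10 were tested, and in Ceapin against siATF6 6 were higher, 2 lower and 2 not called (edgeR adjusted p under 0.05). Over all tested genes 31.4% were higher and 29.8% lower, and the median log2 fold change was 0.60 for the list and 0.02 for all genes. NKX2-1, the lung and thyroid transcription factor that activates surfactant genes, was well expressed in all 4 groups, at 58.3 ± 1.04 CPM in siCtrl, 58.8 ± 1.57 in siATF6, 94.6 ± 4.49 in DMSO and 86.3 ± 4.24 in Ceapin. It was higher in Ceapin than in siATF6 by 0.55 (SE 0.0396, adjusted p = 7.02e-14). NAPSA, which encodes the protease napsin A that processes pro-SFTPB, was at 1.84 ± 0.259 CPM in siATF6 and 14.2 ± 0.767 CPM in Ceapin (2.94, SE 0.129, adjusted p = 2.39e-19), and SFTA3 at 6.08 ± 0.291 and 15.8 ± 0.445 CPM (1.38, adjusted p = 1.37e-14). ETV5, a transcription factor of type II cells, was lower (−0.22). SFTPC reached the table but not the filter, and SFTPA1, SFTPA2, SFTA2 and PGC were not in the table.

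Within the arms fewer of these genes were called. After ATF6 siRNA 1 gene was called higher (LPCAT1, 0.26; 16.1% over all genes) and 3 lower (15.3%). LAMP3, which encodes a lysosomal membrane protein, fell from 12.9 ± 0.368 to 6.62 ± 0.416 CPM (−0.97, adjusted p = 7.8e-10), the phosphate carrier gene SLC34A2 by 1.16 on the log2 scale and SFTA3 by 0.34. SLC34A2 had few reads, at 1.07 ± 0.066 CPM in siCtrl and 0.474 ± 0.0926 CPM in siATF6 (at most 22 and 10 reads a library). After Ceapin-A7 ETV5 was called higher (0.14; 2.21% over all genes) and NKX2-1 lower (−0.13, adjusted p = 0.0294; 2.41%). The LPCAT1 call was lost without any 1 of 5 of the 6 siRNA libraries (all but siCtrl replicate 2), with library totals, with no filter and with DESeq2 (adjusted p up to 0.211), the SFTA3 call without siCtrl replicate 1 or siATF6 replicate 3 (up to 0.111), and the NKX2-1 call without DMSO replicate 2 or 3 or Ceapin replicate 1 or 2, with library totals and with DESeq2 (adjusted p up to 0.236).

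EDN2 (ENSG00000127129; chromosome 1, 41478775 to 41484673, minus strand, protein-coding) was close to the limit of detection in the siRNA arm, at 0.279, 0.155 and 0.0557 CPM in siCtrl and 0.264, 0.0527 and 0.263 CPM in siATF6, which are 1 to 5 reads a library. It was at 2.82, 2.99 and 2.82 CPM in DMSO and 3.40, 3.55 and 2.96 CPM in Ceapin, from 51 to 65 reads. The arms did not overlap, whereas the groups within each arm did. Ceapin exceeded siATF6 by a log2 fold change of 4.05 (SE 0.301, edgeR adjusted p = 1.89e-13). As a ratio of summed reads, 183 against 11, it was 17.1-fold (exact 95% interval 9.34 to 34.9, counting error only). Ceapin-A7 was not called to alter EDN2 (0.20, interval −0.16 to 0.56, adjusted p = 0.662), with 8 of 9 pairs of libraries higher in Ceapin. In the siRNA arm 11 against 9 reads leave the ratio between 0.447 and 3.24 (exact 95% interval), and the adjusted p was 0.824.

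The single RefSeq window of EDN2, from 250 bases before to 50 after the start (GRCh38.p14, minus strand, 5′ to 3′), is shown for comparison with the second SFTPB window, as both genes are high in the same arm.
EDN2 window at chr1:41484634-41484933: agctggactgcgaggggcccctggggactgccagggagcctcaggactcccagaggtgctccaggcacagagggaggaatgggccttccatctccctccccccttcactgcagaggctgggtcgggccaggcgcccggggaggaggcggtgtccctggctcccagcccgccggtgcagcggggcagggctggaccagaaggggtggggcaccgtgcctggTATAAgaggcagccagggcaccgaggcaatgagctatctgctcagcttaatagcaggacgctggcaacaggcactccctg
The capitals mark TATAA, whose first base lies 30 bases before the start, and no other motif of the search had a match in this window.

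Other genes of the endothelin system differed between the same groups by less. Of 10 listed genes 6 were tested, and in Ceapin against siATF6 4 were higher and 2 lower (31.4% and 29.8% over all genes; median 0.24). EDN1, the related gene of endothelin-1, was at 2.11 ± 0.00723 CPM in siATF6 and 2.96 ± 0.245 CPM in Ceapin (0.49, adjusted p = 0.0119), and the converting enzyme gene ECE1 at 211.4 ± 6.06 and 276.6 ± 6.33 CPM (0.39). The EDN1 call was lost with DESeq2 in place of edgeR (adjusted p = 0.0854). MME, which encodes neprilysin, a protease that degrades endothelins, was lower, at 11.6 ± 1.06 and 2.91 ± 0.160 CPM (−1.99, adjusted p = 2.25e-16). After ATF6 siRNA 3 of the 6 were called higher (16.1% over all genes), with ECE1 at 0.28, and FURIN fell (−0.20; 15.3%). After Ceapin-A7 only EDN1 of the 6 was called higher (0.62, adjusted p = 0.0305; 2.21% over all genes). That call was lost without any 1 of the 3 DMSO libraries or Ceapin replicate 1 or 2 (adjusted p up to 0.134). The receptor gene EDNRA was in the table but under the filter.

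MAP2K6 (ENSG00000108984; chromosome 17, 69414698 to 69553861, plus strand, protein-coding) had the fewest reads of the 6 in its low arm, 3, 2 and 3 in siCtrl and 2, 1 and 1 in siATF6, or 0.0525 to 0.167 CPM. In DMSO it was at 2.15, 2.54 and 1.99 CPM and in Ceapin at 1.99, 2.13 and 1.62 CPM, from 29 to 45 reads. The arms did not overlap, and the groups within each arm did. Between Ceapin and siATF6 the log2 fold change was 4.64 (SE 0.389, edgeR adjusted p = 3.49e-12). The ratio of 106 to 4 summed reads was 27.3-fold, with an exact 95% interval of 10.3 to 101.9. ATF6 siRNA gave 4 reads against 8 (ratio 0.486, exact interval 0.107 to 1.81; adjusted p = 0.393), an interval that holds both a fall and a rise. Ceapin-A7 gave −0.22 (interval −0.62 to 0.18, adjusted p = 0.664).

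All 32 other listed genes of the p38 cascade were tested, and in Ceapin against siATF6 15 were lower, 7 higher and 10 not called (29.8% lower and 31.4% higher over all genes; median −0.13, against 0.02). MAP2K3, which encodes MKK3, the closest relative of MKK6, was at 155.8 ± 2.50 CPM in siATF6 and 94.3 ± 2.70 CPM in Ceapin (−0.72, SE 0.0317, adjusted p = 2.08e-19). MKNK2, a kinase downstream of p38 and ERK, was lower (−2.06, adjusted p = 3.76e-30). After ATF6 siRNA 11 rose and 5 fell (16.1% and 15.3% over all genes), led by MKNK2 (0.66, adjusted p = 5.28e-18) and ATF2, a transcription factor that p38 phosphorylates (−0.55, adjusted p = 9.33e-15). After Ceapin-A7 3 rose and 2 fell (2.21% and 2.41% over all genes). Those that rose were the stress genes GADD45A (0.39) and GADD45B (0.30) and the phosphatase gene DUSP1 (0.14). Those that fell were the p38 target kinase gene MAPKAPK2 (−0.11) and ZFP36 (−0.13), whose product destabilises cytokine mRNAs. The call of DUSP1 was lost without DMSO replicate 1 or 3 or Ceapin replicate 2 or 3 and with DESeq2 (adjusted p up to 0.149), and that of ZFP36 without DMSO replicate 1 or Ceapin replicate 2 or 3 (up to 0.126).

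OLAH (ENSG00000152463; chromosome 10, 15032227 to 15073852, plus strand, protein-coding) showed the reverse order of levels. It was at 6.97, 6.76 and 5.35 CPM in siCtrl and 4.49, 5.27 and 5.99 CPM in siATF6, from 85 to 131 reads. In DMSO it was at 0.166, 0.282 and 0.332 CPM and in Ceapin at 0.314, 0.328 and 0.167 CPM, from 3 to 6 reads. All libraries of the siRNA arm were above all of the compound arm. OLAH was 18.9-fold lower in Ceapin than in siATF6 (log2 fold change −4.24, SE 0.246, edgeR adjusted p = 3.54e-16). ATF6 siRNA gave −0.28 (interval −0.55 to −0.01), which had an unadjusted p of 0.0445 and did not pass over all genes (adjusted p = 0.116). The groups overlapped, siATF6 replicate 3 lying above siCtrl replicate 3, and without siCtrl replicate 3 the gene did pass (−0.38, adjusted p = 0.0441). That library was the lowest of siCtrl, and OLAH was chosen for a high level in siCtrl, which favours a fall in siATF6. Ceapin-A7 gave 0.06, with an interval from −0.93 to 1.05 on 15 against 14 reads (adjusted p = 0.978).

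The enzyme that OLAH acts on stood in the opposite order. FASN, which encodes fatty acid synthase, was at 315.7 ± 9.89 CPM in siATF6 and 544.1 ± 14.7 CPM in Ceapin (0.79, SE 0.0254, adjusted p = 6.65e-23). Of 28 listed genes of fatty acid synthase, its partners and acyl thioesterases, 23 were tested, and in Ceapin against siATF6 9 were higher, 8 lower and 6 not called (31.4% higher and 29.8% lower over all genes; median 0.09). Among the lower ones were LYPLA1, an acyl-protein thioesterase (−0.53), and PPT1, the lysosomal palmitoyl thioesterase (−0.47). After ATF6 siRNA 2 rose, PPT1 (0.45, adjusted p = 1.31e-15) and FASN (0.09, adjusted p = 0.0091), and 4 fell (16.1% and 15.3% over all genes). The FASN call in the siRNA arm was lost without siCtrl replicate 1 or siATF6 replicate 2 or 3 (adjusted p up to 0.0932). After Ceapin-A7 0 rose and 2 fell (2.21% and 2.41% over all genes), FASN (−0.18, adjusted p = 3.28e-06) and ACLY (−0.15), the citrate lyase that supplies acetyl-CoA.

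ATP6V0D2 (ENSG00000147614; chromosome 8, 85987323 to 86154228, plus strand, protein-coding) was the single gene of the 6 that was called for a treatment within its arm. It was at 17.6, 17.6 and 20.1 CPM in siCtrl and at 12.8, 12.9 and 12.1 CPM in siATF6, from 231 to 360 reads. All 3 siATF6 libraries lay below all 3 siCtrl libraries. ATP6V0D2 fell by 0.55 on the log2 scale after ATF6 siRNA (SE 0.0800, 95% interval −0.71 to −0.38, edgeR adjusted p = 1.53e-06), to 0.685 of its level in siCtrl. The call held in all 20 alternative settings, which reuse these libraries, with log2 fold changes from −0.58 to −0.47. The gene was chosen for a level that is high in siCtrl, which favours a fall in siATF6. In DMSO the gene was at 1.11, 0.904 and 1.11 CPM and in Ceapin at 1.2, 0.819 and 1.12 CPM, from 15 to 23 reads. These groups overlapped and Ceapin-A7 gave 0.01 (interval −0.47 to 0.49, adjusted p = 0.993). Ceapin against siATF6 was 11.9-fold lower (−3.58, SE 0.137, adjusted p = 6.32e-21).

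Most other V-ATPase subunits were lower in Ceapin than in siATF6 too, by less. Of 24 listed genes 21 were tested, and 13 were lower, 4 higher and 4 not called in Ceapin against siATF6 (median −0.38, against 0.02 for all genes, of which 29.8% were lower and 31.4% higher). ATP6V0D1, the d subunit made in most tissues, was at 153.8 ± 4.0 CPM in siATF6 and 104.4 ± 1.21 CPM in Ceapin (−0.56, adjusted p = 6.19e-17). ATP6V1B2, a subunit of the catalytic sector, was lower (−0.86, adjusted p = 9.58e-23), while ATP6V0E2 was higher by 1.01. After ATF6 siRNA 5 of the 21 rose and 8 fell (16.1% and 15.3% over all genes), and ATP6V0D1 rose by 0.22 (adjusted p = 2.56e-07), opposite in sign to ATP6V0D2. After Ceapin-A7 0 rose and 3 fell (2.21% and 2.41% over all genes), ATP6V1A (−0.14), ATP6V0E1 (−0.14) and ATP6V1C2 (−0.73). The ATP6V0E1 call was lost without Ceapin replicate 1 or 3, and that of ATP6V1C2 without DMSO replicate 2 or 3 or Ceapin replicate 1 or 3 (adjusted p up to 0.159). Of 9 osteoclast markers 8 were in the table, with summed levels from 53.9 to 63.3 CPM in the siRNA arm and from 33.8 to 37.4 CPM in the compound arm. ACP5 and DCSTAMP were near 0, with at most 8 and 3 reads a library. TNFRSF11A, which encodes the receptor RANK, was at 19.6 ± 2.01 CPM in siATF6 and 13.4 ± 0.774 CPM in Ceapin (−0.55, adjusted p = 2.13e-07), and the transcription factor gene NFATC1 at 22.3 ± 1.16 and 8.44 ± 0.623 CPM (−1.40, adjusted p = 1.18e-16). CTSK, which encodes cathepsin K, was lower too (−0.26), and CALCR was higher (0.65). The part of these markers in the result on ATP6V0D2 was not tested.

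SPINK1 (ENSG00000164266; chromosome 5, 147824568 to 147831786, minus strand, protein-coding) was at 7.69, 8.46 and 7.69 CPM in siCtrl and 7.82, 7.54 and 6.72 CPM in siATF6, from 128 to 164 reads. In DMSO it was at 0.332, 0.339 and 0.720 CPM and in Ceapin at 0.838, 0.710 and 0.892 CPM, from 6 to 16 reads. The arms did not overlap. SPINK1 was 8.99-fold lower in Ceapin than in siATF6 (log2 fold change −3.17, SE 0.171, edgeR adjusted p = 5.51e-17). Within the compound arm it was the gene of the 6 with the largest value for Ceapin-A7, 0.80 (interval 0.16 to 1.44, unadjusted p = 0.0218), but this did not pass over all genes (adjusted p = 0.203). Without DMSO replicate 3, the highest DMSO library for SPINK1, it was 1.26 (adjusted p = 0.0762). The gene was chosen for a level that is low in DMSO, which favours a rise in Ceapin. The groups overlapped, as DMSO replicate 3 lay above Ceapin replicate 2, and 45 reads stood against 25. ATF6 siRNA gave −0.11 (interval −0.34 to 0.11, adjusted p = 0.501).

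The RefSeq window of SPINK1 (250 bases before to 50 after the start, GRCh38.p14, minus strand, 5′ to 3′) is shown as the counterpart from a gene high in the siRNA arm.
SPINK1 window at chr5:147831622-147831921: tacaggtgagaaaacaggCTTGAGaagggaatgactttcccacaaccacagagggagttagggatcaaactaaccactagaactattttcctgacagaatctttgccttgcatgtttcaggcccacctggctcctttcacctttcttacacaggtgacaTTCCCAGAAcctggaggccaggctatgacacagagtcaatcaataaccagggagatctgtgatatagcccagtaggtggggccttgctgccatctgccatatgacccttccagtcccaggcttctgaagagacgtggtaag
The capitals mark CTCAAG, the NKX2-1 core, on the opposite strand from base 232 before the start, and the STAT sequence TTCNNNGAA from base 91 before it. CTCAAG is in 12.4% of the 35116 windows and TTCNNNGAA in 7.66%. Only this exact string was searched for NKX2-1, so its lack in the SFTPB windows does not show that they hold no NKX2-1 site. Neither TATAA nor TGANTCA was found in this window. Of the 6 genes 4 have an entry in the window table, with 6 windows in all. The pair for MAP2K6, which is not printed, holds TATAA at 2 places and CTCAAG at 1, all in its second window. The motifs CCAAT (34.6% of windows), TGACGT (7.98%) and the ER stress element (0.0769%) matched in 0 of the 6 windows.

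Most tested protease and inhibitor genes of the system SPINK1 belongs to were in the opposite order. Of 38 listed genes 20 were tested, and in Ceapin against siATF6 14 were higher and 1 lower (31.4% and 29.8% over all genes; median 0.50). PLAU, which encodes urokinase, was at 166.4 ± 6.90 CPM in siATF6 and 777.8 ± 15.9 CPM in Ceapin (2.22, adjusted p = 6.92e-34). CTRC, which encodes the trypsin-degrading chymotrypsin C, was at 0.773 ± 0.252 and 3.39 ± 0.288 CPM (2.13), the Kazal inhibitor gene SPINK5 at 1.58 ± 0.163 and 3.24 ± 0.892 CPM (1.03), and the inhibitor gene SPINT1 was higher by 0.99. The one lower gene was F2RL1, the receptor that trypsin cleaves (−0.31). After ATF6 siRNA 1 rose and 6 fell (16.1% and 15.3% over all genes), PLAU by 0.59 on the log2 scale (adjusted p = 1.95e-17). After Ceapin-A7 PLAU alone of the 20 was called, higher by 0.39 (adjusted p = 1.06e-13), where 2.21% of all genes were higher and 2.41% lower. Of 14 pancreatic acinar markers only CEL was in the table, with a summed level of at most 0.956 CPM. As bulk RNA was measured, fewer cells that express a gene and less RNA per cell cannot be told apart.

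**Figure D2:**
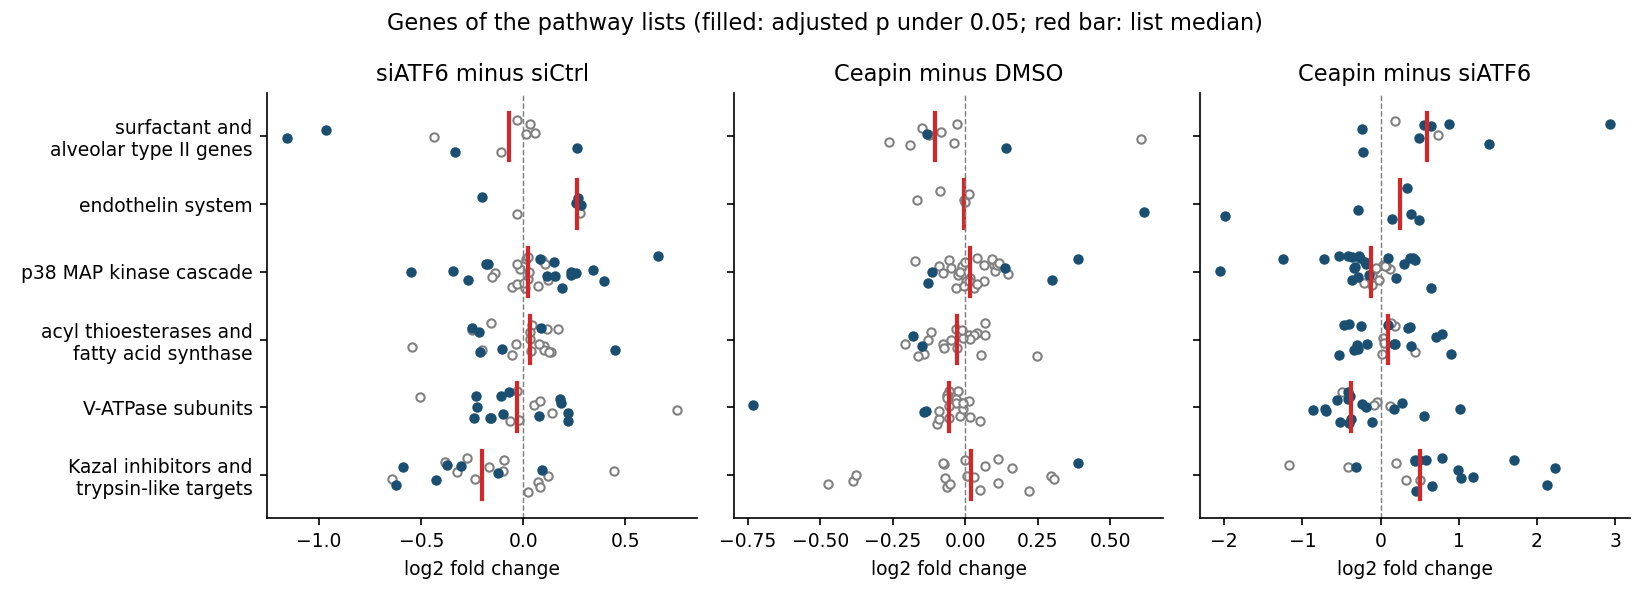
Log2 fold changes of the tested genes of the 6 pathway lists in 3 comparisons (points; filled where the edgeR adjusted p is under 0.05; red bars, list medians; the 6 genes themselves are left out). In Ceapin minus siATF6 the median is 0.60 for surfactant genes and 0.50 for proteases and inhibitors, and −0.38 for V-ATPase subunits.

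Across the 6 genes, all 6 differed between Ceapin and siATF6 by the edgeR test (3 higher and 3 lower), where 61.2% of all tested genes did. Their groups did not overlap for 6 of 6, as for 64.5% of all genes. All 6 differed by at least 8-fold, as did 31 of 17823 genes (0.174%). These genes passed the filter through the arm where they are high, and the sizes rest on few reads in the other arm, down to 4 over the siATF6 group for MAP2K6 and 11 for EDN2. The adjusted p-values for Ceapin against siATF6 rest on a spread fitted over all 12 libraries, the siCtrl and DMSO libraries included. Ceapin and siATF6 belong to the same arms as DMSO and siCtrl, so their comparison is not a separate experiment. The 8-fold count and the ranks are given as a description. By absolute log2 fold change MAP2K6 was 1st, SFTPB 2nd, OLAH 4th, EDN2 7th, ATP6V0D2 14th and SPINK1 25th of 17823. The within-arm picture was different. After ATF6 siRNA 1 of the 6 was called (31.4% of all tested genes), and 1 of the 6 had groups that did not overlap (41.4%). For EDN2 and MAP2K6 the few reads of the siRNA arm leave wide intervals, so no call there is not a finding of no change. For Ceapin-A7 0 of the 6 were called by edgeR (4.62% of all genes), and SPINK1 was the single one at an unadjusted p under 0.05. Limma-voom called 0 of the 6, and DESeq2 gave 5 of the 6 no adjusted p and did not call the other one. Of the 6 genes 0 had groups that did not overlap (20.6%). The siCtrl and DMSO libraries also served to choose the 6 genes, so the within-arm comparisons share libraries with the choice. A gene chosen for a high siCtrl level, such as ATP6V0D2 or OLAH, is favoured to look lower in siATF6. One chosen for a low DMSO level, such as SPINK1, is favoured to look higher in Ceapin.

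**Figure D3:**
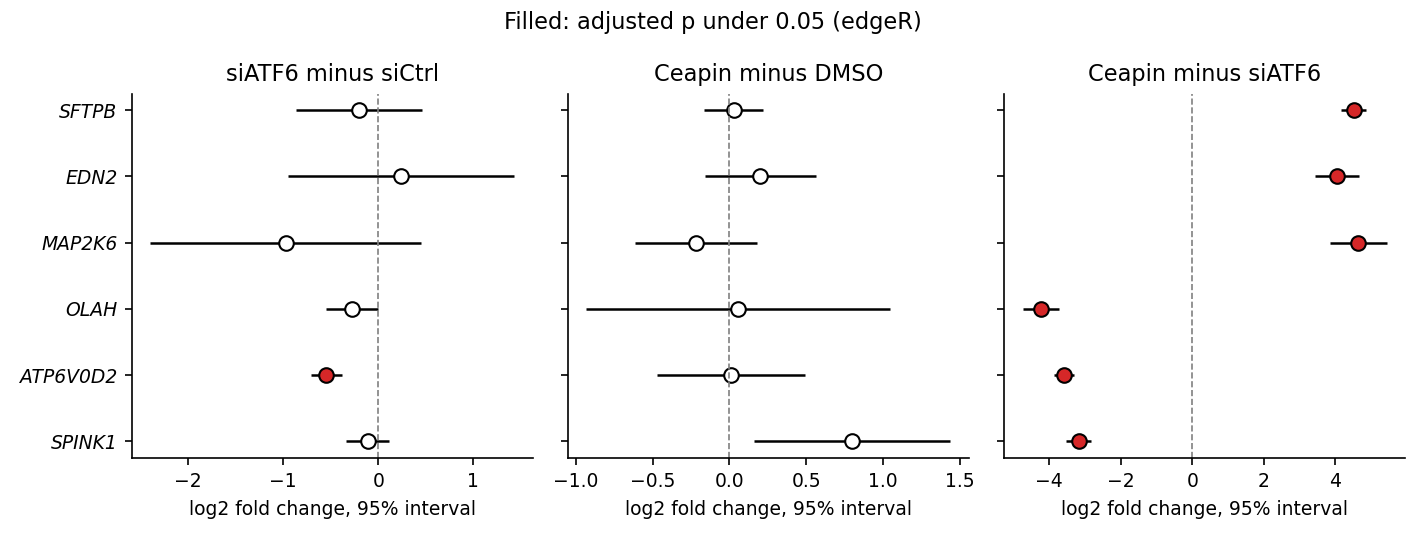
Log2 fold changes of the 6 genes with 95% intervals from the edgeR fit over all 12 libraries, on an axis of its own for each comparison (filled points, adjusted p under 0.05). ATP6V0D2 at −0.55 is the one filled point within an arm, and the widest intervals are those of the genes with few reads in that arm.

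In the contrast that chose them, DMSO minus siCtrl, the log2 fold changes were 4.28 for SFTPB, 4.09 for EDN2, 3.88 for MAP2K6, −4.58 for OLAH, −4.14 for ATP6V0D2 and −4.08 for SPINK1. These were the 3 largest in each direction among 13780 named genes whose mean reached 1 CPM. At least an 8-fold difference was seen for 0.219% of all tested genes, 61.9% were called and 65.4% had groups that did not overlap. Just outside the 6 lay S100A9, a calcium-binding protein of neutrophils and stressed epithelium (3.77), and SPX, which encodes the peptide spexin (−3.89). Then came SUSD2 (3.73), MYBPH (3.72), QPRT (3.65) and TNS4 (3.64) on the high side and IL36B (−3.43), NEURL1 (−3.33), LY96 (−3.32) and INHBA (−3.32) on the low side. Every gene in the table has at least 1 read in every library, so a gene wholly silent in one arm is not among those compared.

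**Figure D4:**
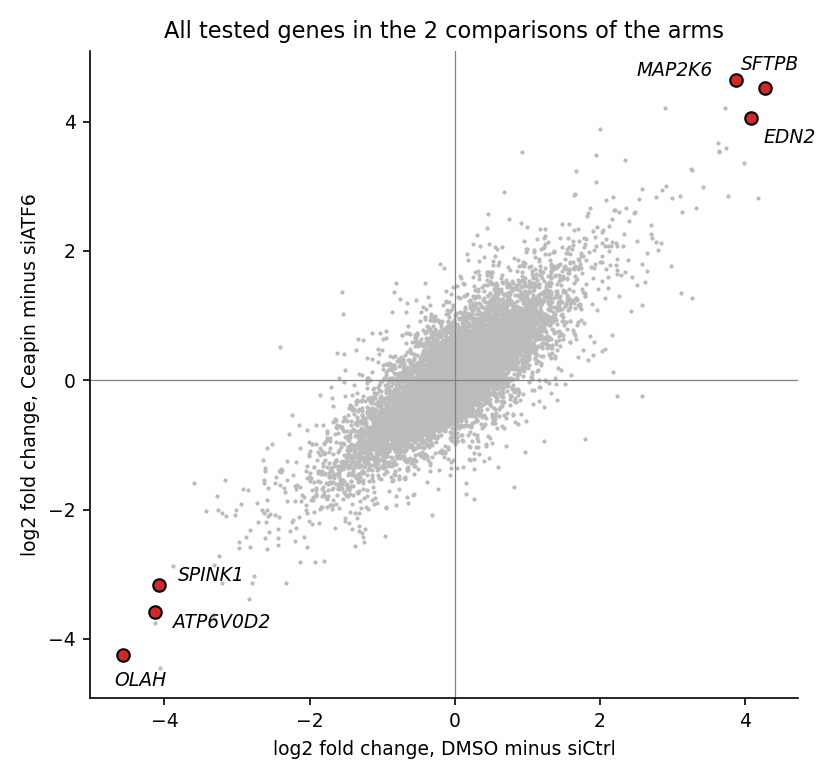
Log2 fold changes of all 17823 tested genes for DMSO minus siCtrl (horizontal, the contrast that chose the genes) and Ceapin minus siATF6 (vertical, other libraries), with the 6 genes in red. The 6 lie at the ends of the cloud, between 4.05 and 4.64 or between −4.24 and −3.17 on the vertical axis.

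The genes with the profile most like each of the 6 were found by the root mean square difference of log2 CPM, centred over the 12 libraries, as a description. MYBPH was the closest to SFTPB (0.41) and to EDN2 (0.50), and DMBT1, a secreted scavenger receptor protein of mucosal surfaces, to MAP2K6 (0.42). SUSD2, a membrane protein gene, was second for both SFTPB (0.44) and MAP2K6 (0.46). DMBT1 was at 1.22 CPM in siCtrl, 1.18 in siATF6, 15.1 in DMSO and 15.0 in Ceapin. ATP6V0D2 was the closest to OLAH (0.47), SPINK1 to ATP6V0D2 (0.43) and INHBA, which encodes the activin A subunit, to SPINK1 (0.43). INHBA was at 21.5 CPM in siCtrl, 19.9 in siATF6, 2.15 in DMSO and 2.74 in Ceapin. SPX was second for ATP6V0D2 (0.43), and after ATF6 siRNA it went from 6.43 ± 0.840 to 4.41 ± 0.0728 CPM (−0.54, edgeR adjusted p = 0.00265). The search for close profiles used these same libraries, so a fall that both share is partly built in. The other close profiles of ATP6V0D2, SPINK1 (−0.11, adjusted p = 0.501) and INHBA (−0.12, adjusted p = 0.208), were not called after ATF6 siRNA.

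Within 500 kb of the starts of the 6 genes, 45 other genes were tested, of which 10 (22.2%) were higher and 14 (31.1%) lower in Ceapin than in siATF6, near the 31.4% and 29.8% over all genes. An 8-fold difference was seen for 0 of the 45, and with 0.174% over all genes this says nothing particular about these regions. GNLY, at −16.4 kb from the SFTPB start (upstream), went the furthest in the direction of its neighbour (2.01, adjusted p = 1.89e-05), with no group mean above 0.936 CPM, and ATOH8, at −82.6 kb, was lower (−1.69). Near MAP2K6 the transporter genes ABCA5 (−0.52), ABCA6 (−1.03) and ABCA10 (−1.11) were lower where MAP2K6 was higher. SPINK5, at −193.9 kb from SPINK1, was higher where SPINK1 was lower. EDN2 had 4 tested neighbours, with log2 fold changes from −0.24 to 0.29. No gene of the table within that distance overlaps any of the 6.

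**Figure D5:**
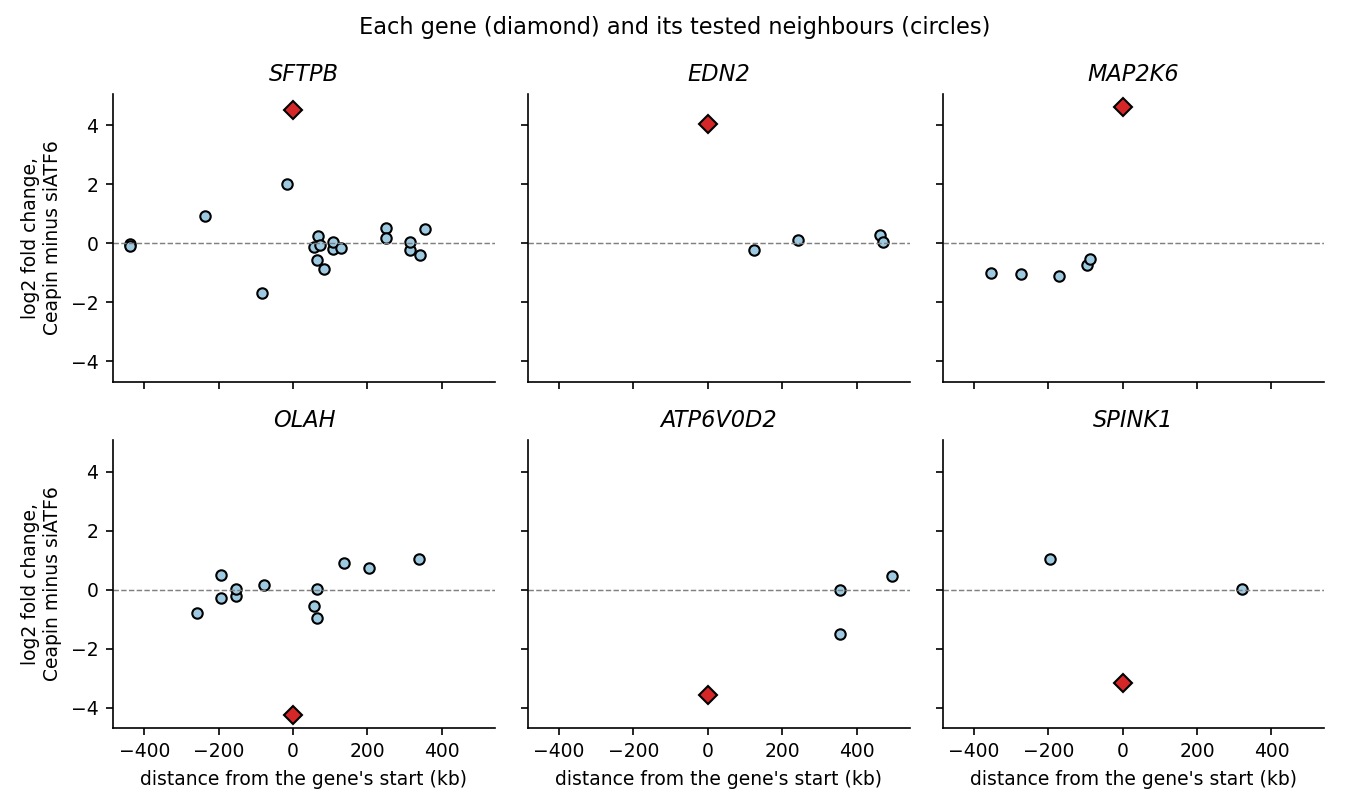
Log2 fold change in Ceapin minus siATF6 of each of the 6 genes (diamonds at 0 kb) and of the 45 tested genes that start within 500 kb (circles), by distance from the gene's start in its direction of transcription. Neighbours lie between −1.69 and 2.01, the 6 genes beyond −3.1 or 4.0.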

How the data were processed

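RNA of 12 DU145 libraries was made into libraries with a stranded TruSeq kit, per the labels. The authors deposited expected counts (estimated counts per gene from Salmon, genome build hg38, per the submitters' processing notes), as whole numbers without scaling; the Salmon version and annotation are not given in the sources used here. Groups follow the sample titles, and columns with the prefix NC were matched to siCtrl by elimination and number. The 6 genes and all lists were chosen with earlier results of these data known. Symbols came from a reference gene table (21201 of 21439 genes), positions from GENCODE release 29.

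Genes were filtered with filterByExpr (minimum count 10; 3616 removed) and scaled by TMM. One edgeR quasi-likelihood model (edgeR 4.0.16, R 4.3.3) covered all 12 libraries with a mean for each group and 8 residual degrees of freedom. Two-sided p-values were adjusted over all 17823 genes by Benjamini and Hochberg, and genes under 0.05 were called. CPM values are TMM-scaled, and summed marker levels use library totals. Intervals of log2 fold changes are 95% intervals of that fit, and intervals of read ratios are exact binomial ones for counting error only. Profiles were compared on log2 CPM with a prior count of 0.5. List genes are named where they have 1 of the 4 smallest p-values of their list in a comparison, besides the 5 nearest genes outside the 6 in each direction and the 3 closest profiles of each. DUSP1, CTRC, SPINK5 and the genes near each of the 6 were chosen after their values were seen. Replicate libraries differed by more than sampling noise in every group. The pipeline was tested on simulated data. Alternatives were DESeq2 (1.42.0) size factors or library totals, no filter or 1 CPM in 3 libraries, DESeq2 or limma-voom (limma 3.58.1), the 6 libraries compared, the replicate number as a block, and each library left out.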

Additional observations from a re-analysis of the deposited data

Results flagged for a closer look

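The effect of the ATF6 siRNA and that of Ceapin-A7 differed, by edgeR's test of the difference adjusted over all genes, for ATF6 itself (−2.30 on the log2 scale, siRNA effect minus compound effect) and for 14 of 20 list genes examined, against 23.4% of all tested genes. The 20 were picked for a strong call in at least one arm, which favours a difference, so the share is not read further. Among surfactant genes these were LAMP3 (−0.88), SLC34A2 (−1.76) and ETV5 (−0.17), and in the endothelin system ECE1 (0.29). In the p38 cascade they were MKNK2 (0.74) and ATF2 (−0.50), and among thioesterase genes PPT1 (0.52) and FASN (0.27). Among V-ATPase subunits they were ATP6V0D1 (0.31), ATP6V0A1 (−0.28), ATP6V1A (0.12) and ATP6V0E1 (0.35), and among protease genes PLAU (−0.98) and F2RL1 (−0.35). The value for SLC34A2 rests on few reads, at most 22 in any library. The 6 that did not pass were NKX2-1, FURIN, EDN1, GADD45A, GADD45B and ACLY (adjusted p from 0.0532 to 0.410). For the 6 genes themselves this difference was not tested, as it contains the contrast that chose them.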

How the results depend on the processing

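The fall of ATP6V0D2 after ATF6 siRNA and the differences of all 6 genes between Ceapin and siATF6 kept their direction and call in all 20 alternatives. OLAH in the siRNA arm, not called with all libraries, was called without siCtrl replicate 3, and its log2 fold change ran from −0.38 to −0.17 with a library left out. That replicate was the lowest of siCtrl for OLAH, and its choice for a high siCtrl level favours a fall. Values near 0 changed sign: with a library left out, EDN2 in the siRNA arm ran from −0.14 to 0.81, and in the compound arm OLAH ran from −0.18 to 0.30, ATP6V0D2 from −0.11 to 0.16 and SFTPB from −0.017 to 0.056. SPINK1 there ran from 0.61 to 1.26 and was not called (adjusted p from 0.0762 to 0.507). Its low DMSO level, for which it was chosen, favours a rise. With limma-voom ATP6V0D2 in the compound arm was at −0.0022. The cause was not tested, and none of the values that changed sign passed. Same-numbered libraries deviated together in no consistent way (correlations from −0.07 to 0.11), and the numbers were not used as pairs. With 3 libraries a group this check cannot show whether libraries were paired. With the number as a replicate block, 5538 genes were called in the siRNA arm (5589 without it) and 783 in the compound arm (823). Of 720 counts for the pathway lists, 681 stayed within 1.5 times. Depth limits the low arm of each gene, where 1 to 23 reads a library were counted.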
